A study of Danio rerio with 12 samples.

Results

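The difference of injury responses between mvp knockout and wild-type zebrafish hearts was examined gene by gene over all 12 libraries of the series. The quantity was the change from mvp-sham to mvp-7dpa minus the change from WT-sham to WT-7dpa, on the log2 scale, so that a negative value means a weaker rise, or a stronger fall, after injury in the knockout. It was measured in 16604 of the 32520 listed genes. The 4 groups held 3 libraries each and crossed genotype with surgery. WT-sham and WT-7dpa were hearts of wild-type fish, and mvp-sham and mvp-7dpa were hearts of mvp knockout (mvp-/-) fish, from a line with 1 deletion allele, made with CRISPR-Cas9, that lacks the coding region. The mutant line was founded by crosses to AB fish, and per the paper's methods all its zebrafish lines had an AB background. Sham hearts had sham surgery, and 7dpa hearts had the tip of the ventricle resected. Tissue of the 7dpa groups was taken at 7 days post amputation, and the sample titles give no day for the sham hearts. The tissue was adult ventricle below the plane of surgery. Age and sex were not given in the sources used here. The methods speak of biological replicates and of several hearts for RNA extraction, but not of how hearts were divided among the libraries, so that p-values measure the spread between these libraries, part of which may be technical.

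MVP is the main protein of the vault, a large barrel-shaped ribonucleoprotein particle of the cytoplasm. The zebrafish ventricle regrows after resection. In the first days the wound draws in leukocytes, epicardial cells and fibroblasts lay down matrix, and from about a week existing cardiomyocytes loosen their sarcomeres and divide. A difference of responses has 4 group means behind it, and any one of them can carry it: a sham group that already differs has the same effect on the contrast as an injured group that does.

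The targeted gene was measured first, in CPM, which are counts scaled to the size and composition of each library. mvp (ENSDARG00000021242) had 179.7, 193 and 182 CPM in the WT-sham libraries, 189, 138 and 136 in WT-7dpa, 4.67, 5.41 and 4.995 in mvp-sham and 16.6, 17.9 and 19.4 in mvp-7dpa. Each mvp library lay below each WT library, and the residual reads counted for this gene were higher in mvp-7dpa than in mvp-sham. Its difference of responses was 2.1 ± 0.18 (SE, edgeR adjusted p = 1.6e-06). The paper reports that mvp mRNA was absent from knockout embryos by qPCR and in situ hybridization. The source of the residual reads in these hearts was not tested. Library totals ranged from 21356163 to 26684651 counts. Replicates lay close together except in WT-7dpa, where replicate 1 stood apart from the other two. The biological coefficient of variation was 26.6% in WT-7dpa and between 4.77% and 7.86% in the other groups, and the chi-square per gene between 2 replicates was 84.06 and 86.87 for the pairs with WT-7dpa replicate 1 and 2.12 to 9.80 for all other pairs. Counts of this library enter the WT response, so counts of a list without it are given beside the list where it moved either of them by over 1.5 times. Cardiomyocyte markers were abundant everywhere, their summed level being 80000 to 90560 CPM in WT-sham, 51430 to 64460 in WT-7dpa, 81700 to 85680 in mvp-sham and 59920 to 61870 in mvp-7dpa. In these bulk libraries, fewer cells of a type and less RNA per cell cannot be told apart.

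The responses of the genotypes differed in 5819 of the 16604 tested genes (35.0%) at an adjusted p under 0.05 after Benjamini-Hochberg adjustment of the p-values from edgeR's quasi-likelihood F-test. In 3302 genes (19.9% of those tested) the difference was negative, called lower here, and in 2517 (15.2%) it was positive, called higher. These shares are the background for each list below. Without WT-7dpa replicate 1 the calls rose over all genes too, to 4781 lower and 3735 higher of 17074 tested. List counts without that library are to be read beside these, not beside 19.9% and 15.2%. The median difference over all tested genes was -0.031. The response itself was called in 59.4% of tested genes for the wild type and 26.3% for the knockout. All groups shared 1 estimate of spread per gene, so the wide spread of WT-7dpa may lower the share called in the knockout. Between genotypes, 49.5% of tested genes were called after sham surgery and 19.5% at 7dpa.

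Of the 3302 genes called lower, 1918 had a called response in the wild type alone, and in all of these the gene rose. Where only the wild-type response is called, the direction of the difference nearly fixes its sign, here and among genes called higher. A further 652 responded in both genotypes the same way, 602 of them upward, and 361 rose in the wild type and fell in the knockout. Of the 2517 genes called higher, 1689 were called in the wild type alone, all of them falling, 313 fell in both genotypes, and 199 fell in the wild type and rose in the knockout. A response called in the knockout alone was found in 304 of the lower and 197 of the higher genes. A call in the wild type alone does not show that the knockout lacked a response, because the estimate of spread was shared. grna.2, chosen after its values were seen, had 11.4, 9.95 and 10.7 CPM in mvp-sham and 46.4, 47.2 and 52.5 in mvp-7dpa. Its mvp response of 2.19 was not called (edgeR quasi-likelihood F-test, adjusted p = 0.158). Over both directions, 3607 of the called genes (62.0%) had a called response in the wild type alone. In 981 both responses were called the same way, in 560 in opposite ways, and in 501 that of the knockout alone was called. The plot shows both responses of each gene.

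**Figure D1:**
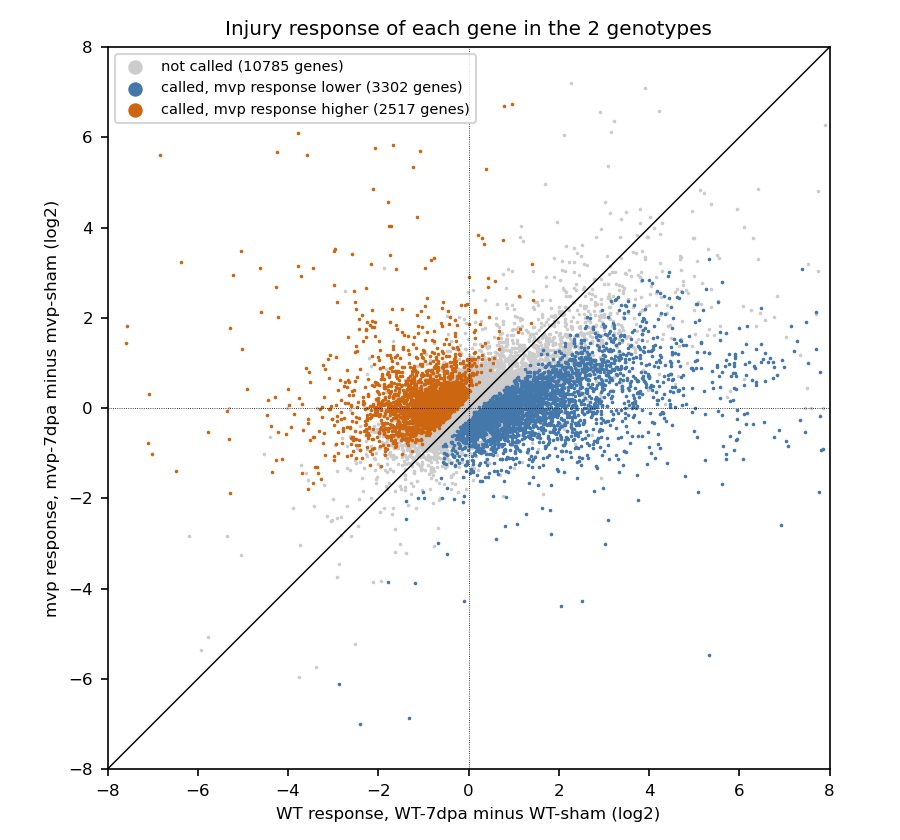
Each point is 1 of 16604 tested genes, with its WT response on the horizontal and its mvp response on the vertical axis, both in log2 units, and the diagonal marks equal responses. The 3302 blue genes lie below the diagonal and the 2517 orange genes above it, and 27 genes lie outside the plotted range of 8 log2 units.

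For each gene, the group that stood apart was taken as the one whose mean lay farthest from the average over the 4 groups. WT-sham was that group in 4043 of the 5819 called genes (69.5%), being the low one in 2251 and the high one in 1792. WT-7dpa stood apart in 861 genes (14.8%), mvp-sham in 732 (12.6%) and mvp-7dpa in 183 (3.145%). Over all tested genes, called or not, WT-sham stood apart in 50.3%. Among genes called lower, WT-sham was the low group in 68.2%, WT-7dpa the high group in 15.5% and mvp-sham the high group in 12.7%. Among genes called higher, WT-sham was high in 71.2%, WT-7dpa low in 13.8% and mvp-sham low in 12.4%. These shares are the background for the groups that stood apart in each list below. The side adds nothing to the direction of the call. By this definition WT-sham can stand apart as low only in genes called lower, and as high only in genes called higher. The side of each other group is fixed by the direction of the call in the same way. A stricter definition required that a group was called different from both of its neighbours in the design while the other comparisons of neighbours were not called. It gave WT-sham alone in 2549 called genes (43.8%), WT-7dpa alone in 394, mvp-sham alone in 322, mvp-7dpa alone in 63 and no single group in 2491. Without WT-7dpa replicate 1, the first definition gave WT-sham in 61.3% and WT-7dpa in 22.05% of the called genes.

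The 50 lists of pathways and families differed widely in how many members were called. In 18 of them the share of tested members called lower was at least 1.5 times the 19.9% of all tested genes, and in 6 others the share called higher was at least 1.5 times 15.2%. Immediate early genes had the largest share lower, and the genes of the mitochondrial genome the largest share higher. The lists sorted into few patterns over the 12 libraries, and they are described below by the group that stood apart.

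**Figure D2:**
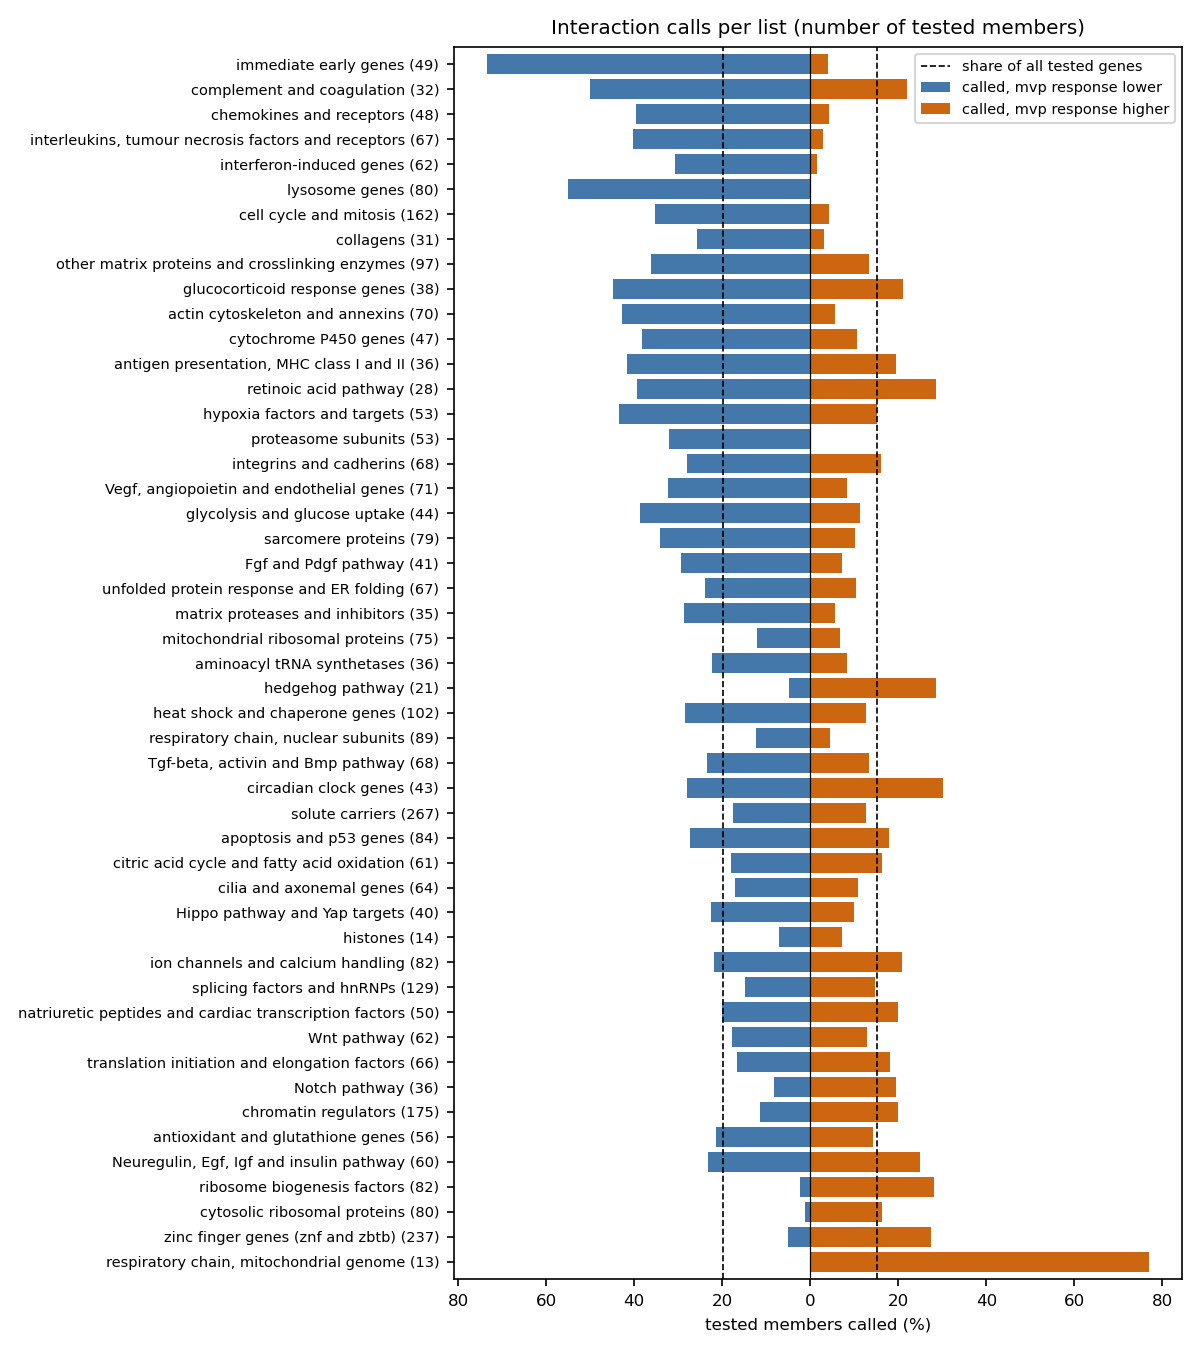
Bars give the percent of tested members called lower in 49 of the 50 lists (blue, to the left) and higher (orange, to the right), with the number of tested members in brackets. Dashed lines mark 19.9% and 15.2%, the shares of all tested genes, and lists are ordered by their median difference.

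**Figure D3:**
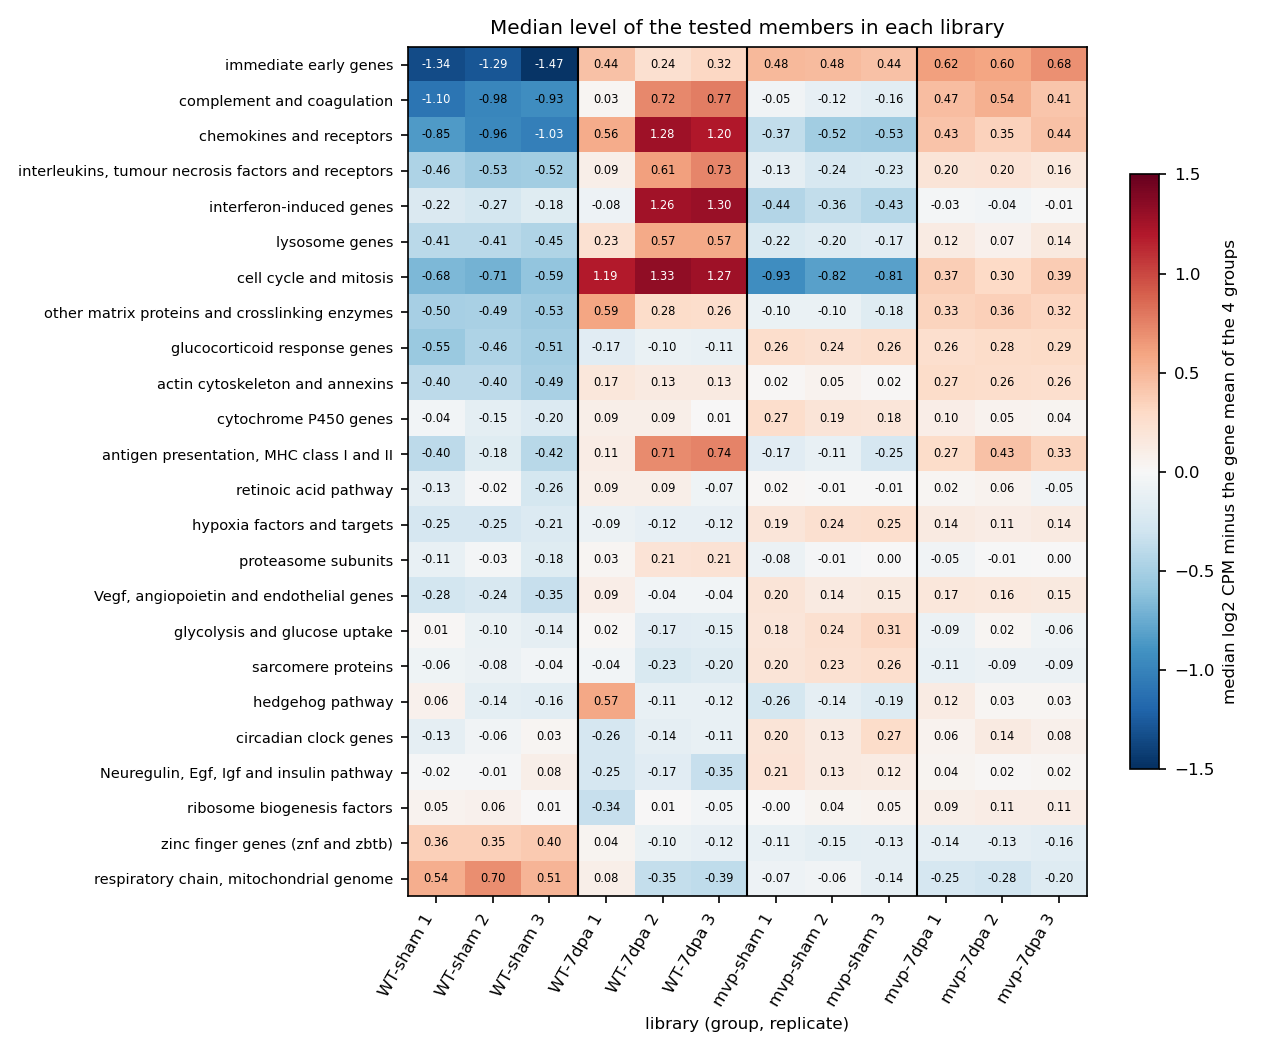
Each cell is the median, over the tested members of a list, of log2 CPM in that library minus the gene's mean over the 4 groups, for the 24 lists past the 1.5-fold mark. WT-sham is the low group in the top row, immediate early genes being at -1.34, -1.29 and -1.47, and the high group in the bottom row, while WT-7dpa replicates 2 and 3 are at 1.26 and 1.3 for interferon-induced genes and replicate 1 is at -0.08.

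Immediate early genes showed the pattern with WT-sham low most plainly. These genes encode transcription factors and mRNA regulators that cells switch on within minutes of a stimulus or stress, without new protein synthesis. Of the list, 36 of the 49 tested members (73.5%) were called lower and 2 (4.08%) higher. Their median difference was -1.58. The median level relative to each gene's mean was -1.34, -1.29 and -1.47 in WT-sham, 0.44, 0.24 and 0.32 in WT-7dpa, 0.48, 0.48 and 0.44 in mvp-sham and 0.62, 0.60 and 0.68 in mvp-7dpa. The WT-sham libraries were low, and the other 9 libraries all lay above them. WT-sham was the low group in 33 of the 38 called members. The median WT response was 1.48 and the median mvp response 0.10, whereas mvp-sham minus WT-sham had a median of 1.98.

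atf3, a stress-induced transcription factor of the bZIP family, had 3.28, 3.43 and 2.78 CPM in the WT-sham libraries, 198, 195 and 187 in WT-7dpa, 565, 566 and 550.4 in mvp-sham and 352, 346 and 336 in mvp-7dpa. No group overlapped another: WT-sham was lowest, and mvp-sham was highest, above both injured groups. Its WT response was 5.93 and its mvp response -0.70, a difference of -6.63 ± 0.11 (SE, adjusted p = 2.7e-13). nr4a3, an orphan nuclear receptor, had 1.67, 1.58 and 1.44 CPM in the WT-sham libraries, 19.6, 15.8 and 15.02 in WT-7dpa, 91.4, 93.5 and 95.5 in mvp-sham and 39.5, 41.3 and 35.9 in mvp-7dpa. It showed the same order, rising by 3.42 in WT hearts and changing by -1.26 in mvp hearts, a difference of -4.69 ± 0.16 (SE, adjusted p = 4.84e-10). fosl1, a subunit of the AP-1 transcription factor, was at 0.537, 0.0878 and 0.154 CPM in WT-sham and between 5.34 and 8.82 CPM in every other library, a difference of -4.88 ± 0.38 (SE, adjusted p = 7.53e-07). Its WT-sham values rest on few counts. The most abundant member, zfp36l1, which directs mRNAs with AU-rich elements to decay, changed far less, with a difference of -0.47 ± 0.16 (SE, adjusted p = 0.0365), WT-7dpa overlapping every other group, and 6 of the 12 fits that left out 1 library lost its call.

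Stress and hormone targets had the same low group. Among glucocorticoid response genes, 17 of the 38 tested members (44.7%) were called lower and 8 (21.1%) higher, and WT-sham was low in 16 of the 25 called members and high in 7. cebpb, a transcription factor of the acute phase response, had 9.51, 8.13 and 7.31 CPM in the WT-sham libraries, 54.0, 163 and 164 in WT-7dpa, 57.5, 59.7 and 66 in mvp-sham and 84.4, 81.3 and 85.5 in mvp-7dpa. WT-sham was lowest. WT-7dpa replicate 1 lay just below the mvp-sham libraries, and replicates 2 and 3 lay above both knockout groups. Its difference was -3.48 ± 0.44 (SE, adjusted p = 5.68e-05). The clock gene per1, which glucocorticoids induce, had 1.24, 0.878 and 1.03 CPM in the WT-sham libraries, 17.5, 6.20 and 6.40 in WT-7dpa, 16.9, 15.96 and 14.3 in mvp-sham and 15.8, 14.7 and 15.3 in mvp-7dpa, so that its 9 other libraries all lay above WT-sham, with a difference of -3.31 ± 0.50 (SE, adjusted p = 0.000261). pdk2, which inhibits pyruvate dehydrogenase, was the most abundant member and went the other way: it was high in WT-sham, at 993, 1059 and 899.8 CPM, against 371 to 627 CPM in the other libraries, a difference of 1.26 ± 0.15 (SE, adjusted p = 3.88e-05).

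WT-sham was also the group most often apart in the clock and endothelial lists, as it was over all called genes. Among circadian clock genes, 12 of the 43 tested members (27.9%) were called lower and 13 (30.2%) higher. Their median difference was -0.070, and WT-sham stood apart in 23 of the 25 called members, low in 12 and high in 11. bmal1, the positive arm of the clock, had 1.72, 1.54 and 0.875 CPM in WT-sham and 0.349 to 0.777 CPM elsewhere, a difference of 2.11 ± 0.50 (SE, adjusted p = 0.00556), whereas csnk1da, a casein kinase that acts on the period proteins, was low in WT-sham and had a difference of -0.59 ± 0.11 (SE, adjusted p = 0.00165). bmal1 and per1 thus lay on opposite sides in the same WT-sham libraries; the time of day of tissue collection was not given in the sources used here. Among genes of the Vegf, angiopoietin and endothelial list, 23 of the 71 tested members (32.4%) were called lower and 6 (8.45%) higher. WT-sham was low in 18 of the 23, beside 68.2% of all genes called lower. Leaving out WT-7dpa replicate 1 gave 31 lower and 14 higher of 72. The summed level of 9 endothelial and endocardial markers was 1111 to 1121 CPM in WT-sham, 1138 to 1269 in WT-7dpa, 1860 to 1971 in mvp-sham and 1446 to 1506 in mvp-7dpa. By these sums WT-sham lay next to WT-7dpa, and mvp-sham was highest.

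The list of natriuretic peptides and cardiac transcription factors was not past the mark, with 10 of the 50 tested members (20%) called lower and 10 (20%) higher. WT-sham was the high group in 8 of the called members and the low group in 6. Among the 10 lower, some genes known to rise in a strained ventricle were low in WT-sham. The genes named here, nppb, ankrd1 and nppa, were all lower members. nppb, which encodes a natriuretic peptide released by stretched myocardium, had 71.0, 76.3 and 64.7 CPM in the WT-sham libraries, 725, 954 and 1025 in WT-7dpa, 956, 912 and 949.9 in mvp-sham and 1084, 1027 and 1194 in mvp-7dpa. WT-sham lay far below the other 9 libraries, mvp-7dpa was highest, and WT-7dpa overlapped mvp-sham. Its WT response was 3.67, its mvp response 0.23 and the difference -3.44 ± 0.16 (SE, adjusted p = 1.32e-08). ankrd1, an ankyrin repeat protein of the sarcomere that rises with load, had 0.430, 0.659 and 1.03 CPM in the WT-sham libraries, 42.2, 77.6 and 78.2 in WT-7dpa, 53.6, 53.5 and 54.4 in mvp-sham and 117, 112 and 115 in mvp-7dpa, and a difference of -5.44 ± 0.35 (SE, adjusted p = 1.53e-07). nppa, the most abundant member, had a difference of only -0.37 ± 0.11 (SE, adjusted p = 0.0205), and 3 of the 12 fits that left out 1 library lost its call.

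Matrix genes had a larger median response in the wild type, from a lower level in WT-sham. Among matrix proteins other than collagens and their crosslinking enzymes, 35 of the 97 tested members (36.1%) were called lower and 13 (13.4%) higher. The median WT response was 0.85 and the median mvp response 0.50. Median levels were -0.50, -0.49 and -0.53 in WT-sham, 0.59, 0.28 and 0.26 in WT-7dpa, -0.10, -0.10 and -0.18 in mvp-sham and 0.33, 0.36 and 0.32 in mvp-7dpa. WT-sham was low in 31 of the 48 called members, and mvp-7dpa lay near the level of WT-7dpa. The fit without WT-7dpa replicate 1 called 39 lower and 21 higher of 97. Collagens had a median difference of -0.55 but fewer calls: 8 of the 31 tested members (25.8%) were called lower and 1 (3.23%) higher, with WT-sham low in 8 of the 9. With WT-7dpa replicate 1 left out, 11 of 32 were lower and 6 higher, and the median difference was -0.24. Median levels of collagens were 1.02, 0.33 and 0.26 in WT-7dpa and 0.56, 0.67 and 0.48 in mvp-7dpa. WT-7dpa replicate 1 thus lay above the mvp-7dpa libraries, and replicates 2 and 3 lay below them.

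ccn1, a matricellular protein induced by the Hippo effector Yap, had 49.1, 47.6 and 46.5 CPM in the WT-sham libraries, 797, 522 and 519 in WT-7dpa, 892, 895 and 901 in mvp-sham and 963, 992 and 971 in mvp-7dpa. WT-sham was lowest, and mvp-sham lay above all 3 WT-7dpa libraries, so that the WT response was 3.68 and the mvp response 0.12, a difference of -3.56 ± 0.19 (SE, adjusted p = 2.79e-08). fn1, fibronectin, on which epicardial cells migrate, was the most abundant member and had 156, 146 and 163 CPM in the WT-sham libraries, 1557, 1143 and 1128 in WT-7dpa, 677, 649.5 and 637 in mvp-sham and 1187, 1253 and 1126 in mvp-7dpa. It rose in both genotypes, by 3.04 in WT hearts and 0.86 in mvp hearts, a difference of -2.18 ± 0.15 (SE, adjusted p = 3.51e-07). Among collagens, col1a1a, a chain of type I collagen, had 78.9, 70.1 and 89.3 CPM in the WT-sham libraries, 838, 434 and 403 in WT-7dpa, 165, 157 and 167 in mvp-sham and 479.8, 483 and 496 in mvp-7dpa, with WT-7dpa replicate 1 above the other injured libraries, and a difference of -1.24 ± 0.30 (SE, adjusted p = 0.00617). The summed level of 13 fibroblast markers was 564 to 632 CPM in WT-sham, 2654 to 4435 in WT-7dpa, 1297 to 1338 in mvp-sham and 2990 to 3098 in mvp-7dpa, and that of 10 epicardial markers 832 to 844 CPM in WT-sham, 1071 to 1421 in WT-7dpa, 1153 to 1167 in mvp-sham and 1372 to 1406 in mvp-7dpa. The part of these cell types in the matrix result was not tested.

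Among genes of the actin cytoskeleton and annexins, 30 of the 70 tested members (42.9%) were called lower and 4 (5.71%) higher, with a median difference of -0.41 and WT-sham low in 20 of the 34 called members. These were 20 of the 30 lower members, a share near the 68.2% of all genes called lower. With WT-7dpa replicate 1 left out, 42 of 71 were lower and 11 higher. actb1, a cytoplasmic actin, had 129.6, 125 and 111 CPM in the WT-sham libraries, 259, 513 and 501 in WT-7dpa, 346, 368 and 379 in mvp-sham and 422, 462 and 425 in mvp-7dpa. All WT-sham libraries lay below the other 9, with a difference of -1.54 ± 0.26 (SE, adjusted p = 0.00073). tagln, a smooth muscle actin-binding protein, had a difference of -1.92 ± 0.39 (SE, adjusted p = 0.0023), with WT-7dpa replicate 1 at 484 CPM and the other injured libraries at 185 to 230 CPM. In that library the summed level of bulbus and smooth muscle markers, tagln among them, was 894.9 CPM, against 596.1 and 607.7 in the other WT-7dpa libraries and 645.4 to 676.6 in mvp-7dpa, and that of atrial markers 8400 CPM, against 4875 and 4825 in WT-7dpa and 4679 to 4844 in mvp-7dpa. The part of these tissues in the tagln result was not tested. anxa2, the most abundant member, rose in both genotypes: 1004, 1072 and 929 CPM in the WT-sham libraries, 1865, 2438 and 2404 in WT-7dpa, 1012, 1078 and 1082 in mvp-sham and 2123, 2230 and 2122 in mvp-7dpa. Its difference, -0.13 ± 0.13 (SE, adjusted p = 0.488), did not pass the test, and the sham groups overlapped. itga5, the fibronectin receptor subunit, belonged to the integrins and cadherins, where 19 of the 68 tested members (27.9%) were called lower and 11 (16.2%) higher. It had 237, 216 and 267 CPM in the WT-sham libraries, 509, 454 and 436 in WT-7dpa, 952, 849.8 and 869.6 in mvp-sham and 533, 534 and 544 in mvp-7dpa, so that mvp-sham was the high group and its responses were 0.96 in WT hearts and -0.73 in mvp hearts, a difference of -1.69 ± 0.12 (SE, adjusted p = 3.98e-07).

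In lists with most calls higher, WT-sham could again be the group that stood apart, on the high side that this direction fixes. The 13 protein-coding genes of the mitochondrial genome encode subunits of the respiratory chain and ATP synthase. None was called lower and 10 were called higher (76.9% of 13), and in all 10 WT-sham was the high group. Their median levels were 0.54, 0.70 and 0.51 in WT-sham, 0.084, -0.35 and -0.39 in WT-7dpa, -0.074, -0.058 and -0.14 in mvp-sham and -0.25, -0.28 and -0.20 in mvp-7dpa. WT-sham was highest, WT-7dpa replicate 1 was next, and the other 8 libraries were below. mt-nd2, a subunit of complex I, had 1844, 1998 and 1782 CPM in the WT-sham libraries, 1017, 846 and 856 in WT-7dpa, 1011, 1008 and 993 in mvp-sham and 966, 907 and 1036 in mvp-7dpa, a difference of 0.9984 ± 0.12 (SE, adjusted p = 3.16e-05). mt-cyb, the most abundant, had called responses of -0.67 and -0.35, and its difference, 0.32 ± 0.16 (SE, adjusted p = 0.135), did not pass the test. Mitochondrial genes together took 14.62% to 15.08% of counts in WT-sham, 13.5% in WT-7dpa replicate 1 and 10.26% to 10.85% in the other 8 libraries. The respiratory chain subunits encoded in the nucleus had no such shift: 11 of the 89 tested members (12.4%) were called lower and 4 (4.49%) higher, with a median difference of -0.082. The fit without WT-7dpa replicate 1 called 16 lower and 16 higher.

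Zinc finger genes, a large family of mostly DNA-binding proteins that is greatly expanded in zebrafish, shared this pattern. Of 237 of 359 matched genes tested, 65 were called higher (27.4%) and 12 lower (5.06%), and WT-sham was the high group in 53 of the 65. The median WT response was -0.44 and the median mvp response -0.015. znf326 had 30.0, 35.6 and 33.6 CPM in the WT-sham libraries, 6.36, 5.64 and 4.97 in WT-7dpa, 1.54, 1.97 and 1.53 in mvp-sham and 9.38, 9.86 and 11.2 in mvp-7dpa. WT-sham was highest and mvp-sham lowest with no overlap between any groups, so that the gene fell by 2.55 in WT hearts and rose by 2.60 in mvp hearts, a difference of 5.14 ± 0.19 (SE, adjusted p = 1.07e-09). zbtb4, a repressor that in mammals binds methylated DNA, was the most abundant, and WT-7dpa was its low group, at 87.3, 177 and 166 CPM against 195 to 551 CPM elsewhere, with a difference of 1.02 ± 0.29 (SE, adjusted p = 0.0151). Reads of near-identical members of this family could have been split in counting. Chromatin regulators leaned the same way less strongly: 20 of the 175 tested members (11.4%) were called lower and 35 (20%) higher, with WT-sham high in 30 of the 55 called members. Leaving out WT-7dpa replicate 1 gave 37 lower and 47 higher of 176.

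The Neuregulin, Egf, Igf and insulin list held calls in both directions: 14 of the 60 tested members (23.3%) were called lower and 15 (25.0%) higher. Its called members did not share 1 pattern: WT-sham was low in 11 and high in 8, and WT-7dpa was low in 6. The genes named here, foxo3a, eif4ebp1 and igfbp1b, were all among those called higher. foxo3a, a transcription factor that insulin signalling keeps out of the nucleus, had 50.8, 46.2 and 50.9 CPM in the WT-sham libraries, 14.3, 11.4 and 10.3 in WT-7dpa, 24.1, 25.1 and 21.4 in mvp-sham and 22.4, 25.3 and 22.6 in mvp-7dpa. WT-sham was high, WT-7dpa low and the knockout groups overlapped in between, with a difference of 2.03 ± 0.16 (SE, adjusted p = 8.83e-07). eif4ebp1, which holds back cap-dependent translation when mTORC1 is inactive, was the most abundant member and had 1121, 1183 and 1155 CPM in the WT-sham libraries, 528, 426 and 422 in WT-7dpa, 797, 782 and 763 in mvp-sham and 619, 597 and 633 in mvp-7dpa, a difference of 0.99 ± 0.12 (SE, adjusted p = 3.19e-05). igfbp1b, a binding protein for insulin-like growth factors, had 12.3, 12.7 and 13.3 CPM in WT-sham and 1.89 to 3.99 CPM elsewhere, a difference of 1.94 ± 0.23 (SE, adjusted p = 4.09e-05).

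Another pattern had WT-7dpa as the high group. Cell cycle and mitosis genes, which drive DNA replication and chromosome segregation, had a smaller median response in the knockout: 57 of the 162 tested members (35.2%) were called lower and 7 (4.32%) higher, and WT-7dpa was the high group in 42 of the 64 called members. The median WT response was 2.21 and the median mvp response 1.48, with a median mvp-7dpa minus WT-7dpa of -0.88. Median levels were -0.68, -0.71 and -0.59 in WT-sham, 1.19, 1.33 and 1.27 in WT-7dpa, -0.93, -0.82 and -0.81 in mvp-sham and 0.37, 0.30 and 0.39 in mvp-7dpa. All 3 WT-7dpa libraries lay above all mvp-7dpa libraries, replicate 1 included, and the sham groups lay together below. ect2, needed for cytokinesis, had 0.161, 0.264 and 0.206 CPM in the WT-sham libraries, 3.49, 2.64 and 2.005 in WT-7dpa, 0.462, 0.455 and 1.06 in mvp-sham and 1.05, 1.07 and 1.19 in mvp-7dpa, a difference of -2.92 ± 0.54 (SE, adjusted p = 0.00117). ccnf, cyclin F, did not follow the list: it was at 0.161, 0.351 and 0.154 CPM in WT-sham and 5.20 to 7.96 CPM in every other library, a difference of -5.05 ± 0.28 (SE, adjusted p = 4.51e-08). hmgb2b, a chromatin protein of the HMG box family and the most abundant member, had 98.0 to 106 CPM in the WT-sham libraries, 151.2, 145 and 149.7 in WT-7dpa, 94.1, 92.6 and 91.7 in mvp-sham and 96.6, 93.5 and 114 in mvp-7dpa, a difference of -0.41 ± 0.10 (SE, adjusted p = 0.00873). The cell type that carried these transcripts is not known from bulk libraries.

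Lysosome genes, which encode hydrolases, membrane proteins and the proton pump of the digestive compartment, had the second largest share: 44 of the 80 tested (86 matched) were called lower (55.0%) and none higher. WT-7dpa was high in 24 of the 44 and WT-sham low in 15. The fit without WT-7dpa replicate 1 called 56 lower and 2 higher of 82. Median levels were -0.41, -0.41 and -0.45 in WT-sham, 0.23, 0.57 and 0.57 in WT-7dpa, -0.22, -0.20 and -0.17 in mvp-sham and 0.12, 0.067 and 0.14 in mvp-7dpa. By these medians replicate 1 of WT-7dpa lay between the mvp-7dpa libraries and the other WT-7dpa libraries. Gene by gene it was at the mvp-7dpa level: its median distance from the mvp-7dpa mean was 0.028 on the log2 scale. For the mean of replicates 2 and 3 that distance was 0.50. ctsd, cathepsin D, a protease of the lysosome, had 113, 118 and 105 CPM in the WT-sham libraries, 238, 541 and 537 in WT-7dpa, 135, 141 and 142 in mvp-sham and 241, 239 and 246 in mvp-7dpa. WT-7dpa replicate 1 was at the level of mvp-7dpa, and replicates 2 and 3 were higher. Its difference was -1.18 ± 0.31 (SE, adjusted p = 0.0099). grna, a granulin, whose products act in the lysosome, had 41.8, 41.4 and 42.5 CPM in the WT-sham libraries, 184, 698 and 698 in WT-7dpa, 104, 103.3 and 95.0 in mvp-sham and 218, 216 and 215 in mvp-7dpa, a difference of -2.55 ± 0.48 (SE, adjusted p = 0.00135). All 8 macrophage markers were called lower too. Their summed level was 256 to 288 CPM in WT-sham, 593 to 634 in mvp-sham and 1038 to 1091 in mvp-7dpa. In WT-7dpa it was 1090 CPM in replicate 1, within the mvp-7dpa range, and 1755 and 1785 in replicates 2 and 3. The part of macrophage number in the lysosome result was not tested.

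Immune lists carried the difference as well. Among chemokines and their receptors, 19 of the 48 tested members (39.6%) were called lower and 2 (4.17%) higher, with a median WT response of 1.91 and a median mvp response of 0.77. WT-sham was low in 13 of the 21 called members and WT-7dpa high in 5. The 13 were among the 19 lower members, a share near the 68.2% of all genes called lower. cxcr4, the receptor for the chemokine Cxcl12, was the most abundant and had 24.3, 25.0 and 27.7 CPM in the WT-sham libraries, 168, 256 and 245 in WT-7dpa, 99.2, 101 and 98.0 in mvp-sham and 193, 190.3 and 195 in mvp-7dpa. WT-sham was lowest and mvp-sham next, without overlap, and the difference was -2.17 ± 0.18 (SE, adjusted p = 1.2e-06). Among interleukins, tumour necrosis factors and their receptors, 27 of the 67 tested members (40.3%) were called lower and 2 (2.98%) higher. Without WT-7dpa replicate 1 the counts were 47 lower and 7 higher of 77 tested. WT-sham was low in 17 of the 27 lower members and WT-7dpa high in 10, beside 68.2% and 15.5% of all genes called lower. Median levels of this list were 0.089, 0.61 and 0.73 in WT-7dpa and 0.20, 0.20 and 0.16 in mvp-7dpa. WT-7dpa replicate 1 thus lay below the mvp-7dpa libraries, and replicates 2 and 3 lay above them.

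Complement and coagulation genes had a median difference of -1.31: of 32 tested among 66 matched, 16 were called lower (50.0%) and 7 higher (21.9%), WT-sham being low in 15 and high in 6 of the called genes. Median levels of the list were 0.034, 0.72 and 0.77 in WT-7dpa and 0.47, 0.54 and 0.41 in mvp-7dpa. WT-7dpa replicate 1 thus lay below the knockout libraries at 7dpa, and replicates 2 and 3 above them. cfp, properdin, which stabilises the alternative complement convertase, had 5.42, 5.67 and 5.46 CPM in the WT-sham libraries, 93.9, 130.1 and 142 in WT-7dpa, 47.2, 47.2 and 41.4 in mvp-sham and 76.9, 76.6 and 74.3 in mvp-7dpa. No groups overlapped, and the difference was -3.72 ± 0.18 (SE, adjusted p = 1.99e-08). c3a.1, a complement C3 gene, had 1.67, 1.76 and 1.54 CPM in the WT-sham libraries, 16.6, 92.8 and 91.3 in WT-7dpa, 19.2, 18.9 and 18.4 in mvp-sham and 46.05, 42.9 and 43.4 in mvp-7dpa, a difference of -4.10 ± 0.70 (SE, adjusted p = 0.000699), with WT-7dpa replicate 1 below the mvp-7dpa libraries and replicates 2 and 3 above them. cfd, factor D of the alternative pathway and the most abundant member, was high in WT-sham at 445, 519.5 and 382 CPM and had a difference of 1.17 ± 0.17 (SE, adjusted p = 0.000214). f13a1, which encodes the factor XIII subunit that crosslinks fibrin, had 0.161, 0.132 and 0.309 CPM in the WT-sham libraries, 776, 205 and 200.4 in WT-7dpa, 192, 197 and 201 in mvp-sham and 128, 132 and 122 in mvp-7dpa. It was close to absent from WT-sham, at 3 to 6 counts a library, and high in all other libraries, and highest in WT-7dpa replicate 1. The summed level of 9 thrombocyte markers was 196 to 209 CPM in WT-sham, 1317 to 1790 in WT-7dpa, 738 to 782 in mvp-sham and 1344 to 1468 in mvp-7dpa.

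Interferon-induced genes were high in 2 libraries. Of the list, 19 of the 62 tested members (30.6%) were called lower and 1 (1.61%) higher, with WT-7dpa as the high group in 12 of the 20. Median levels were -0.22, -0.27 and -0.18 in WT-sham, -0.079, 1.26 and 1.3 in WT-7dpa, -0.44, -0.36 and -0.43 in mvp-sham and -0.030, -0.040 and -0.0072 in mvp-7dpa. Replicates 2 and 3 of WT-7dpa stood above the other 10 libraries, among them WT-7dpa replicate 1, whose median distance from the mvp-7dpa mean was -0.015. irf7, the transcription factor that amplifies interferon production, had 5.53, 5.18 and 6.69 CPM in the WT-sham libraries, 7.26, 106 and 106 in WT-7dpa, 5.69, 5.81 and 6.38 in mvp-sham and 5.39, 6.64 and 6.58 in mvp-7dpa. Replicates 2 and 3 were far above the rest, and replicate 1 was near the sham level. Its difference was -3.60 ± 0.96 (SE, adjusted p = 0.0114). ifit8, an interferon-induced gene of the tetratricopeptide family, had 1.15, 22.8 and 22.8 CPM in WT-7dpa and 0.103 to 0.527 CPM in the other groups, a difference of -5.62 ± 1.91 (SE, adjusted p = 0.0359), a call that 8 of the 12 fits leaving out 1 library lost. Without WT-7dpa replicate 1, 52 of 67 tested members were called lower and 1 higher. The summed level of 13 T and B lymphocyte markers was 17.74 CPM in WT-7dpa replicate 1 against 170.1 and 177.7 CPM in replicates 2 and 3, and at most 20.8 CPM in the other groups. The part of lymphocytes in the interferon result was not tested.

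Proteasome subunits, the parts of the protease that degrades ubiquitin-tagged proteins, had small differences: 17 of the 53 tested were called lower (32.1%) and none higher, with a median difference of -0.31 and WT-7dpa high in 10. psmb8, a catalytic subunit that interferon induces, had 8.002, 10.9 and 7.42 CPM in the WT-sham libraries, 15.4, 44.2 and 40.9 in WT-7dpa, 22.8, 26.5 and 26.2 in mvp-sham and 42.2, 40.9 and 42.4 in mvp-7dpa, a difference of -1.19 ± 0.41 (SE, adjusted p = 0.0366) that 10 of the 12 fits leaving out 1 library lost. psma3, the most abundant subunit, had a difference of -0.17 ± 0.095 (SE, adjusted p = 0.189), which did not pass the test. Without WT-7dpa replicate 1, 34 of the 53 were called lower, and the other 11 fits that left out 1 library gave 8 to 21.

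MHC genes, which encode the molecules that present peptides to T cells, did not share 1 pattern: 15 of the 36 tested members (41.7%) were called lower and 7 (19.4%) higher. Median levels of the list were 0.11, 0.71 and 0.74 in WT-7dpa and 0.27, 0.43 and 0.33 in mvp-7dpa. Here too WT-7dpa replicate 1 lay below the mvp-7dpa libraries, and replicates 2 and 3 above them. mhc2dgb (ENSDARG00000104635), a class II gene, had no count in any WT-sham library, 25.2, 31.3 and 34.4 CPM in WT-7dpa, 10.5, 10.3 and 10.3 in mvp-sham and 22.8, 19.6 and 21.9 in mvp-7dpa. Against a floor of 3 counts in each WT-sham library it was at least 203.5-fold higher in WT-7dpa, 69.4-fold in mvp-sham and 143.9-fold in mvp-7dpa. mhc2dga behaved the same way, at least 149.6-fold higher in WT-7dpa than that floor. The class I genes mhc1zda and mhc1zea were among the 5 largest positive differences among genes with a symbol and a mean log2 CPM of at least 1, and paired the groups otherwise. mhc1zda had 7.36, 8.48 and 7.88 CPM in the WT-sham libraries, 0.489, 2.28 and 2.55 in WT-7dpa, 0.872, 1.16 and 0.925 in mvp-sham and 10.2, 8.38 and 8.54 in mvp-7dpa, high in WT-sham and mvp-7dpa and low in WT-7dpa and mvp-sham, a difference of 5.35 ± 0.53 (SE, adjusted p = 7.74e-06). mhc1zea had 5.85, 5.67 and 6.95 CPM in the WT-sham libraries, 0.489, 2.04 and 2.99 in WT-7dpa, 0.769, 0.657 and 0.601 in mvp-sham and 6.71, 7.34 and 7.24 in mvp-7dpa, in the same order, a difference of 5.12 ± 0.58 (SE, adjusted p = 2.51e-05). Reads of similar MHC genes could have been split in counting. Zebrafish lines and individuals carry MHC haplotypes with different sets of genes. The haplotypes of these fish are not given in the sources used here, and their part in the result was not tested. mhc1zba, the most abundant member, had a difference of -0.91 ± 0.12 (SE, adjusted p = 6.46e-05).

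In 4 lists mvp-sham was often the high group, beside genes with WT-sham low. Hypoxia factors and their targets had 23 of 53 tested members called lower (43.4%) and 8 higher, and of the 31 called members WT-sham was low in 14 and mvp-sham high in 9. The median of mvp-sham minus WT-sham was 0.56, and the median responses were 0.037 in WT hearts and -0.14 in mvp hearts. ldha, lactate dehydrogenase A, had 979, 1051 and 874 CPM in the WT-sham libraries, 970.0, 993 and 1018 in WT-7dpa, 1530, 1589 and 1491 in mvp-sham and 1151, 1157 and 1074 in mvp-7dpa. mvp-sham was highest, without overlap, and the difference was -0.48 ± 0.10 (SE, adjusted p = 0.00299). epob, an erythropoietin gene, had 0.161, 0.176 and 0.257 CPM in WT-sham and 0.796 to 1.39 CPM elsewhere, a difference of -2.52 ± 0.44 (SE, adjusted p = 0.00079). Glycolysis and glucose uptake genes overlapped with this list. Of their called members, WT-sham was low in 9 and high in 5, and mvp-sham was high in 6. Among the 44 tested members, 17 (38.6%) were called lower and 5 (11.4%) higher, and 21 and 9 without WT-7dpa replicate 1. gapdh, the most abundant of them, was high in WT-sham, with 96400, 97420 and 88720 CPM in the WT-sham libraries, 54070, 37300 and 35990 in WT-7dpa, 65620, 66580 and 69120 in mvp-sham and 57410, 59570 and 57240 in mvp-7dpa, a difference of 0.94 ± 0.18 (SE, adjusted p = 0.00143), whereas its relative gapdhs was low there, with 589.7, 616 and 629 CPM in the WT-sham libraries, 1207, 1733 and 1717 in WT-7dpa, 1745, 1702 and 1756 in mvp-sham and 1323, 1385 and 1423 in mvp-7dpa, a difference of -1.68 ± 0.16 (SE, adjusted p = 4.36e-06). hk2, a hexokinase, had 36.1 and 34.6 CPM in WT-7dpa replicates 2 and 3 and 5.76 CPM in replicate 1, and a difference of -3.04 ± 0.71 (SE, adjusted p = 0.0052).

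Heat shock and chaperone genes, which refold damaged proteins, held some of the largest single differences although the list was nearer the background: 29 of the 102 tested members (28.4%) were called lower and 13 (12.8%) higher, WT-sham being low in 16 and mvp-sham high in 12 of the called members. hspa1b, an inducible Hsp70, had 4.73, 5.23 and 4.27 CPM in the WT-sham libraries, 159, 123.2 and 115 in WT-7dpa, 649.9, 659.8 and 665 in mvp-sham and 229, 234 and 232 in mvp-7dpa. No group overlapped another, mvp-sham being highest and WT-sham lowest, so that it rose by 4.80 in WT hearts and fell by 1.51 in mvp hearts, a difference of -6.31 ± 0.16 (SE, adjusted p = 3.72e-11). hspb9l, a small heat shock protein gene and the most abundant member, had 1111, 1228 and 1023 CPM in the WT-sham libraries, 1976, 1459 and 1517 in WT-7dpa, 3877, 3809 and 3748 in mvp-sham and 2123, 1966 and 2301 in mvp-7dpa, a difference of -1.40 ± 0.16 (SE, adjusted p = 2.14e-05). dnajb5, a cochaperone of Hsp70, was at 0.376, 0.659 and 0.206 CPM in WT-sham and 5.76 to 11.2 CPM elsewhere, a difference of -4.38 ± 0.37 (SE, adjusted p = 1.9e-06).

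Sarcomere proteins, the contractile apparatus of muscle, were called lower in 27 of 79 tested members (34.2%; 91 matched) and higher in 8 (10.1%). Of the 35 called, WT-sham was low in 13 and mvp-sham high in 10. Leaving out WT-7dpa replicate 1 gave 35 lower and 18 higher. The median response was -0.12 in WT hearts and -0.42 in mvp hearts. acta1, the skeletal muscle alpha actin, had 298, 306 and 273 CPM in the WT-sham libraries, 1561, 1573 and 1556 in WT-7dpa, 2621, 2734 and 2815 in mvp-sham and 1448, 1471 and 1474 in mvp-7dpa. WT-sham was lowest, mvp-sham highest and the injured groups were lower than mvp-sham, with a difference of -3.31 ± 0.090 (SE, adjusted p = 4.51e-11). xirp1, a Xin repeat protein of the intercalated disc, had 0.591, 0.527 and 0.515 CPM in the WT-sham libraries, 3.46, 4.88 and 5.83 in WT-7dpa, 14.98, 16.2 and 17.8 in mvp-sham and 8.41, 7.39 and 6.58 in mvp-7dpa, a difference of -4.24 ± 0.29 (SE, adjusted p = 2.22e-07). The most abundant member, a myosin heavy chain listed as myh7 (ENSDARG00000079782), fell in both genotypes, by 0.89 in WT hearts and 0.63 in mvp hearts, and its difference, 0.27 ± 0.12 (SE, adjusted p = 0.103), did not pass the test. The summed level of 15 skeletal muscle markers was 8960 to 9688 CPM in WT-sham, 10100 to 12010 in WT-7dpa, 12950 to 14040 in mvp-sham and 9937 to 10380 in mvp-7dpa. Reads of the near-identical actin genes could have been split in counting.

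The last pattern had WT-7dpa as the low group of many called members. Ribosome biogenesis factors, which process ribosomal RNA and assemble the subunits in the nucleolus, were called higher in 23 of 82 tested members (28.0%) and lower in 2 (2.44%), WT-7dpa being low in 13 and WT-sham high in 8 of the 25. nop14, a factor of the small subunit processome, had 17.5, 16.6 and 18.9 CPM in the WT-sham libraries, 3.56, 4.60 and 4.07 in WT-7dpa, 8.87, 12.4 and 12.2 in mvp-sham and 11.6, 11.9 and 11.8 in mvp-7dpa. WT-7dpa was lowest, WT-sham highest and the knockout groups overlapped, with a WT response of -2.12, an mvp response of 0.077 and a difference of 2.19 ± 0.19 (SE, adjusted p = 2.05e-06). npm1b, a nucleophosmin, the nucleolar chaperone of ribosome assembly, had 26.6, 24.6 and 26.1 CPM in the WT-sham libraries, 11.2, 8.88 and 8.18 in WT-7dpa, 3.03, 3.33 and 3.28 in mvp-sham and 7.87, 6.77 and 9.36 in mvp-7dpa, and it fell by 1.45 in WT hearts and rose by 1.31 in mvp hearts, a difference of 2.77 ± 0.20 (SE, adjusted p = 4.31e-07). ncl, nucleolin, the most abundant, had a difference of 0.20 ± 0.075 (SE, adjusted p = 0.0581), which did not pass the test. Median levels of the list were 0.047, 0.063 and 0.0083 in WT-sham, -0.34, 0.0066 and -0.045 in WT-7dpa, -0.0039, 0.037 and 0.054 in mvp-sham and 0.089, 0.11 and 0.11 in mvp-7dpa. By these medians WT-7dpa replicate 1 was low, and replicates 2 and 3 lay near the sham libraries. Across the list, WT-7dpa replicate 1 was below the mean of replicates 2 and 3 in 71 of the 82 genes, the median of the gap being -0.27 on the log2 scale. Without it 28 members were called higher and 9 lower.

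Cytosolic ribosomal proteins had a share higher near the background and few members lower: 13 of the 80 tested members (16.2%) were called higher and 1 (1.25%) lower, with a median difference of 0.29. The direction was the same in most of the called members, with WT-7dpa low in 6 and mvp-7dpa high in 6 of the 14. rpl14 had 41.7, 42.6 and 41.2 CPM in the WT-sham libraries, 23.6, 22.0 and 22.1 in WT-7dpa, 32.7, 32.0 and 33.1 in mvp-sham and 30.6, 24.1 and 33.2 in mvp-7dpa, a difference of 0.74 ± 0.14 (SE, adjusted p = 0.00127), and rpl3, the most abundant, had a difference of 0.19 ± 0.12 (SE, adjusted p = 0.239), which did not pass the test. Without WT-7dpa replicate 1, 36 of the 80 were called higher and 1 lower. eef1a1l1, elongation factor 1 alpha, which brings aminoacyl-tRNA to the ribosome, had 2233, 2415 and 2121 CPM in the WT-sham libraries, 1465, 1612 and 1658 in WT-7dpa, 2047, 2163 and 2220 in mvp-sham and 1991, 2016 and 2066 in mvp-7dpa. WT-7dpa was lowest, and the difference was 0.43 ± 0.10 (SE, adjusted p = 0.00524). Translation initiation and elongation factors as a list lay at the background: 11 of the 66 tested members (16.7%) were called lower and 12 (18.2%) higher. Their counts were 21 and 22 without WT-7dpa replicate 1.

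**Figure D4:**
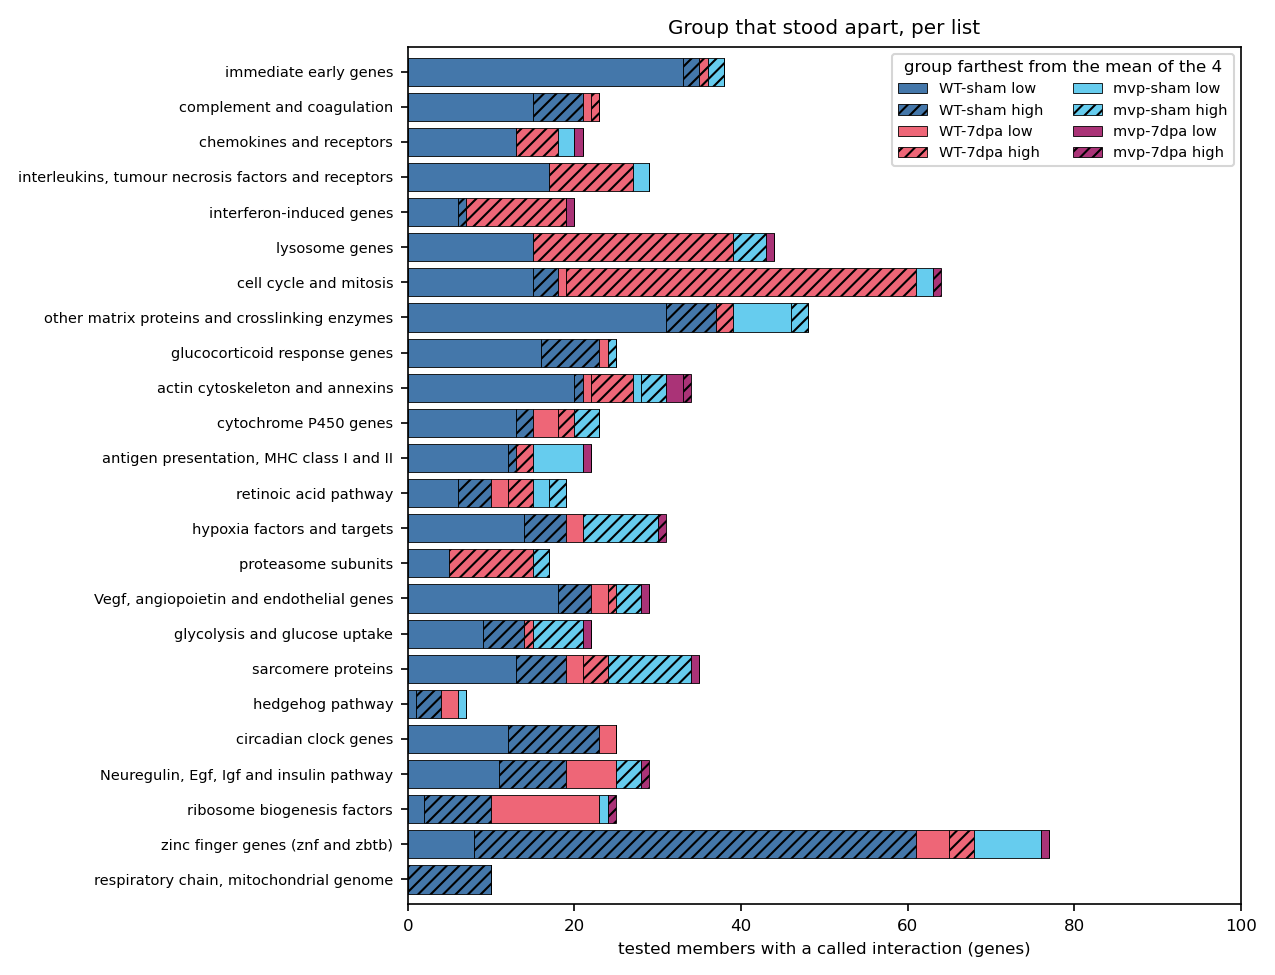
Bars count the called members of the 24 lists by the group that stood apart and by its side, high groups being hatched. WT-sham low makes up 33 of 38 immediate early genes, WT-sham high 53 of 77 zinc finger genes, WT-7dpa high 42 of 64 cell cycle genes and WT-7dpa low 13 of 25 ribosome biogenesis factors.

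Developmental signalling lists were mostly near the background. In the Notch pathway 3 of the 36 tested members (8.33%) were called lower and 7 (19.4%) higher, and without WT-7dpa replicate 1 the counts were 8 and 11. In the Tgf-beta, activin and Bmp pathway 16 of the 68 tested members (23.5%) were called lower and 9 (13.2%) higher. The counts were 17 and 15 of 69 without WT-7dpa replicate 1. tgif1, a corepressor of Smad proteins, had 25.6, 27.7 and 22.8 CPM in the WT-sham libraries, 112, 89.4 and 82.4 in WT-7dpa, 319.6, 291 and 270.4 in mvp-sham and 211, 196 and 217 in mvp-7dpa, a difference of -2.39 ± 0.16 (SE, adjusted p = 1.9e-07). In the Wnt pathway 11 of the 62 tested members (17.7%) were called lower and 8 (12.9%) higher, and ctnnb1, beta-catenin, its most abundant member, had a difference of 0.22 ± 0.10 (SE, adjusted p = 0.0848), which did not pass the test. Without WT-7dpa replicate 1, 13 of 64 Wnt pathway genes were lower and 17 higher. In the Fgf and Pdgf pathway 12 of the 41 tested members (29.3%) were called lower and 3 (7.32%) higher, with a median difference of -0.18. Leaving out that library gave 13 and 7 of 42 and turned the median to 0.043. spry4, a feedback inhibitor of receptor tyrosine kinases, had 38.2, 36.2 and 40.6 CPM in the WT-sham libraries, 126, 157 and 145 in WT-7dpa, 299, 305 and 301 in mvp-sham and 267, 270.2 and 257 in mvp-7dpa, a difference of -2.08 ± 0.11 (SE, adjusted p = 2.95e-08). In the Hippo list 9 of the 40 tested members (22.5%) were called lower and 4 (10%) higher, and without that library 13 and 8 of 41. The retinoic acid pathway passed the mark in both directions: 11 of the 28 tested members (39.3%) were called lower and 8 (28.6%) higher. rdh10, which oxidises retinol to retinal, had 3.38, 3.08 and 2.27 CPM in the WT-sham libraries, 16.9, 18.4 and 19.4 in WT-7dpa, 8.67, 8.28 and 7.59 in mvp-sham and 12.8, 12.01 and 13.1 in mvp-7dpa, a difference of -2.02 ± 0.18 (SE, adjusted p = 2.79e-06). In the hedgehog pathway 6 of 21 tested members were called higher (28.6%) and 1 lower (4.76%). The fits leaving out 1 library gave 1 to 7 higher, and its most abundant member cdon, a coreceptor of hedgehog ligands, had a difference of 0.46 ± 0.16 (SE, adjusted p = 0.0353) that 8 of those fits lost.

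Genes that moved in opposite directions were a smaller class. Of the 5819 called genes, 560 (9.62%) had a called response in each genotype with opposite signs, 361 rising in the wild type and falling in the knockout. Among them, cth, an enzyme of the transsulfuration pathway that makes cysteine, was chosen after its values were seen because the smaller of its 2 responses was the largest of those 361 among genes with a symbol and a mean log2 CPM of at least 1. It had 6.82, 5.54 and 5.25 CPM in the WT-sham libraries, 35.5, 13.5 and 13.7 in WT-7dpa, 35.9, 35.8 and 35.7 in mvp-sham and 5.23, 5.28 and 4.91 in mvp-7dpa. WT-sham and mvp-7dpa were low, and mvp-sham was close to WT-7dpa replicate 1, replicates 2 and 3 lay below, with responses of 1.83 and -2.80 and a difference of -4.63 ± 0.44 (SE, adjusted p = 4.91e-06). hspa1b, nr4a3, atf3, acta1 and xirp1 belonged to the same class. In the 199 genes of the other direction, znf326, mhc1zda, mhc1zea and npm1b rose in the knockout and fell in the wild type.

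mvp-7dpa rarely stood apart. By the stricter definition it did so in 63 genes, of which 41 were called lower and 22 higher. alkbh5, an RNA demethylase chosen after its values were seen, had 3.71, 3.82 and 2.94 CPM in the WT-sham libraries, 3.98, 3.20 and 3.63 in WT-7dpa, 3.08, 2.83 and 2.73 in mvp-sham and 1.28, 0.743 and 1.31 in mvp-7dpa, a difference of -1.41 ± 0.29 (SE, adjusted p = 0.0023). mvp-sham stood alone in 322 genes. dclk2a, a doublecortin-like kinase chosen likewise, had 24.1, 23.1 and 28.4 CPM in the WT-sham libraries, 33.8, 26.8 and 22.7 in WT-7dpa, 4.92, 5.35 and 5.37 in mvp-sham and 22.6, 24.3 and 21.2 in mvp-7dpa: mvp-sham was low, the other 3 groups overlapped, and the difference was 1.98 ± 0.19 (SE, adjusted p = 6.84e-06).

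**Figure D5:**
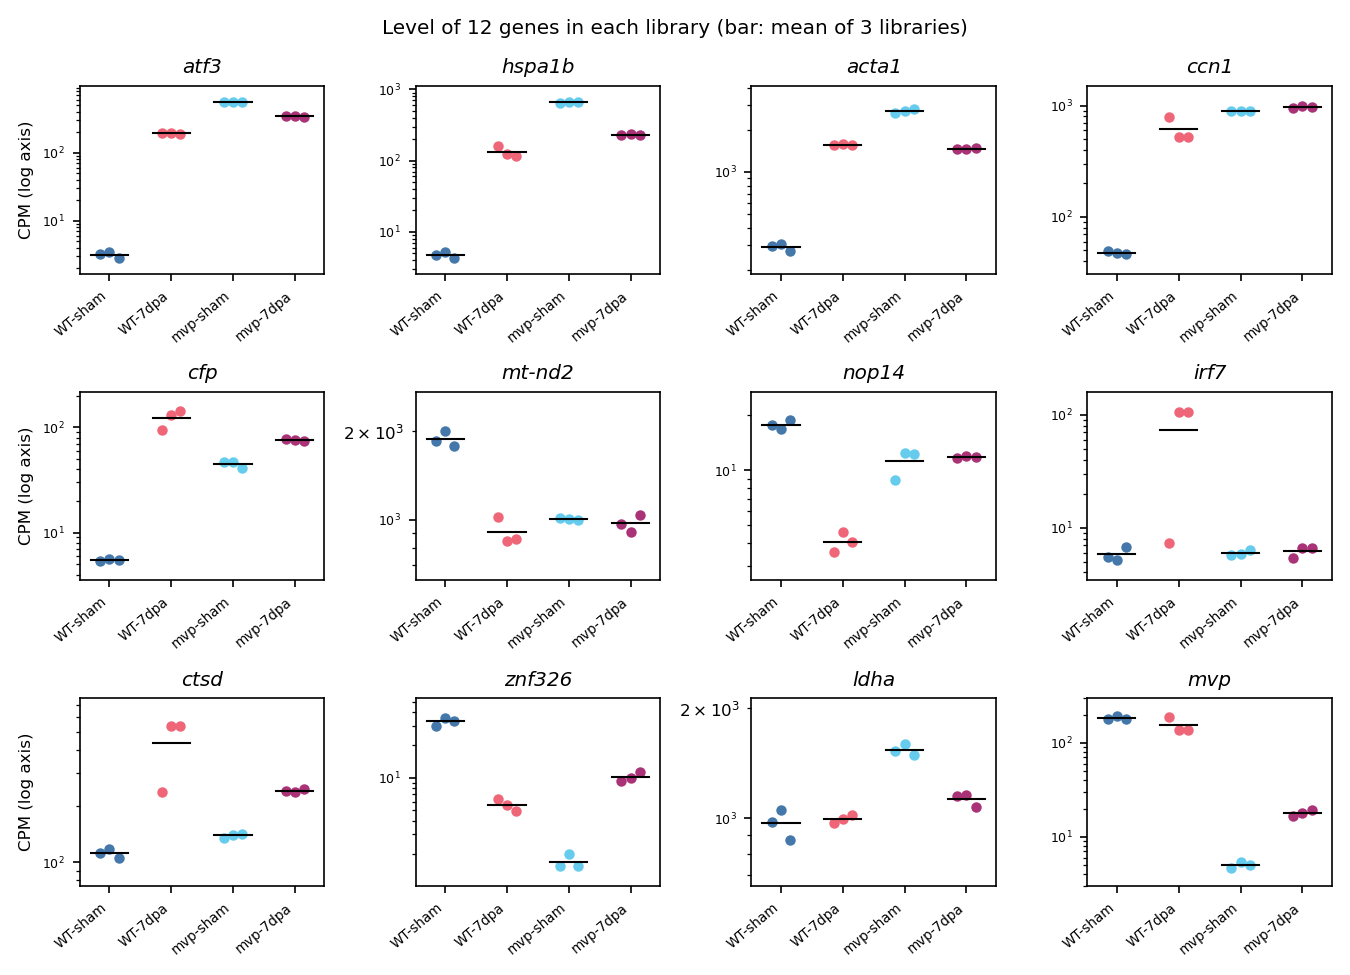
Points are CPM in the 3 libraries of each group on log axes, with bars at the group means, for 12 genes that show the patterns. WT-sham is low for atf3, hspa1b, acta1, ccn1 and cfp and high for mt-nd2. WT-7dpa is low for nop14 and, in replicates 2 and 3, high for irf7 and ctsd, mvp-sham is high for ldha and low for znf326, and mvp is low in both knockout groups.

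The most negative differences over the whole table were of genes low in WT-sham. Of the 5 most negative with a symbol and a mean log2 CPM of at least 1, mhc2dgb, mhc2dga and morn2 had no count in any WT-sham library, and mhc2dhb and f13a1 had few. morn2, whose product carries MORN repeats, had 27.2, 19.1 and 19.1 CPM in WT-7dpa, 13.03, 13.8 and 12.7 in mvp-sham and 16.4, 16.9 and 17.7 in mvp-7dpa, at least 146.3-fold above the WT-sham floor in WT-7dpa and at least 88.55-fold in mvp-sham. Of the 5 most positive, si:dkey-184p9.7 had 32.9, 34.0 and 32.5 CPM in the WT-sham libraries, 1.01, 0.959 and 1.05 in WT-7dpa, 0.462, 0.404 and 0.509 in mvp-sham and 1.28, 1.16 and 0.981 in mvp-7dpa, high in WT-sham alone, a difference of 6.33 ± 0.21 (SE, adjusted p = 3.81e-10). spryd7, a SPRY domain protein, had 11.98, 10.7 and 11.3 CPM in the WT-sham libraries, 0.524, 1.72 and 2.23 in WT-7dpa, 0.615, 1.51 and 1.16 in mvp-sham and 5.39, 6.48 and 5.03 in mvp-7dpa, a difference of 5.27 ± 0.51 (SE, adjusted p = 6.41e-06).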

How the data were processed

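The authors deposited 1 table of gene counts per library, whole numbers of reads per gene. Per the submitters' processing notes, reads were handled with HISAT2 2.1.0, SAMtools 1.10 and featureCounts 1.6.0 on build GRCz11. How multi-mapped reads and strand were counted is not given in the sources used here. Totals of 21356163 to 26684651 counts per library limit the precision of genes with few counts.

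Genes were filtered with filterByExpr, scaled by TMM and fitted in edgeR 4.0.16 (R 4.3.3) with 4 group means over all 12 libraries. The contrast was tested by the quasi-likelihood F-test, with Benjamini-Hochberg adjustment over 16604 genes and a threshold of 0.05. The script was tested on simulated data with the same spread in all groups, which does not cover the wider spread of WT-7dpa. CPM values use the TMM library sizes. Gene symbols are written in lower case.

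The 50 gene lists were chosen with earlier results of these data known, and marking 24 of them at 1.5 times the background followed their values. Named genes were mvp, for each list the 3 called members with the largest difference in its main direction and the most abundant member, and the 5 lowest and 5 highest among genes with a symbol and a mean log2 CPM of at least 1. Genes of lists near the background, or of uncertain role, were left out in part, and 1 list and some genes are not reported here. Alternatives used DESeq2 1.42.0, limma 3.58.1, other scalings and filters, a replicate block, exact zebrafish symbols and leaving out each library.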

Additional observations from a re-analysis of the deposited data

Results flagged for a closer look

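The genotypes' responses to injury differed by the test of the difference itself in 5819 genes, and in 560 of these both responses were called with opposite signs. The same test called 36 of 49 tested immediate early genes, 44 of 80 lysosome genes and 16 of 32 complement and coagulation genes lower, beside 19.9% of all tested genes. It called 10 of 13 genes of the mitochondrial genome and 13 of 43 circadian clock genes higher, beside 15.2% of all tested genes. In the other direction, 12 circadian clock genes were lower (27.9%) and 7 complement and coagulation genes higher (21.9%).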

How the results depend on the processing

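The difference was called in 4846 to 5967 genes under other scalings, tools and filters. Upper quartile scaling turned the balance, with 2931 genes lower and 3036 higher. Leaving out 1 library at a time gave 4820 to 8516 calls, 2771 to 4781 lower and 2005 to 3735 higher, the highest without WT-7dpa replicate 1 and at most 5217 otherwise. By list, these fits called lower 21 to 31 for Vegf, angiopoietin and endothelial genes, 27 to 42 for actin cytoskeleton and annexins, 13 to 22 for antigen presentation, MHC class I and II, 42 to 76 for cell cycle and mitosis, 15 to 28 for chemokines and receptors, 13 to 19 for complement and coagulation, 16 to 22 for cytochrome P450 genes, 17 to 20 for glucocorticoid response genes, 13 to 21 for glycolysis and glucose uptake, 18 to 26 for hypoxia factors and targets, 34 to 41 for immediate early genes, 12 to 52 for interferon-induced genes, 19 to 47 for interleukins, tumour necrosis factors and receptors, 35 to 56 for lysosome genes, 29 to 40 for other matrix proteins and crosslinking enzymes, 8 to 34 for proteasome subunits, 8 to 14 for retinoic acid pathway, 22 to 35 for sarcomere proteins. They called higher 13 to 18 for Neuregulin, Egf, Igf and insulin pathway, 11 to 13 for circadian clock genes, 1 to 7 for hedgehog pathway, 9 to 13 for respiratory chain, mitochondrial genome, 17 to 28 for ribosome biogenesis factors, 48 to 90 for zinc finger genes (znf and zbtb). Requiring an absolute log2 difference of at least 1 left 3074 of the 16604 tested genes, 1946 lower and 1128 higher. Beside these, it left lower 8 of 44 glycolysis, 12 of 79 sarcomere, 23 of 80 lysosome and 1 of 53 proteasome genes. It also left lower 36 of 162 cell cycle, 6 of 28 retinoic acid, 11 of 53 hypoxia and 14 of 70 actin genes. It left higher 4 of 82 ribosome biogenesis, 0 of 13 mitochondrial genome and 8 of 43 circadian genes. Higher too were 37 of 237 zinc finger, 8 of 60 insulin and Neuregulin and 3 of 21 hedgehog genes. The proteasome, ribosome biogenesis and mitochondrial genome shares were then below those of all tested genes. At least 10 counts in every library left 2751 of 12910 tested genes lower, among them 9 chemokine, 9 antigen presentation and 34 cell cycle genes. With exact zebrafish symbols alone, 50.0% of mitochondrial genome and all of the hedgehog members were higher (100%) and 0.0% of retinoic acid members lower, from fewer members. The stricter definition gave WT-sham in 43.8% of called genes. Replicate numbers did not pair the libraries, and the fit with a replicate block called 5521 genes. Without mitochondrial genes their list had no value. 631 tested genes have a group at or under the floor of 3 counts, and setting them to their bound moved no list median by more than 0.0847. For the changes not due to fewer genes or samples, the cause was not tested.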

Other observations

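Cytochrome P450 genes, which encode oxidising enzymes of lipids, hormones and foreign compounds, were called lower in 18 of 47 tested members (38.3%) and higher in 5 (10.6%), with a median difference of -0.41. Without WT-7dpa replicate 1, 22 were lower and 10 higher. cyp27c1, which makes a modified form of vitamin A, had 0.0537, 0.132 and 0.0515 CPM in WT-sham, 3.67, 6.40 and 5.54 in WT-7dpa, 3.95, 3.99 and 3.75 in mvp-sham and 8.41, 9.66 and 8.54 in mvp-7dpa.

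Solute carriers were below the background, with 47 of 267 (17.6%) lower and 34 (12.7%) higher, as were cilia and axonemal genes, with 11 of 64 (17.2%) lower and 7 (10.9%) higher. The latter had 11 of 65 lower and 13 higher without WT-7dpa replicate 1. Ion channels and calcium handling genes were not past the mark in either direction. Of these, 18 of 82 (21.95%) were lower and 17 (20.7%) higher, with a median difference of -0.029. Among those lower, kcne4, a regulatory subunit of potassium channels, had 8.11, 8.26 and 8.13 CPM in WT-sham, 86.1, 79.1 and 79.2 in WT-7dpa, 108, 102 and 102 in mvp-sham and 195, 186 and 189 in mvp-7dpa, a difference of -2.45 ± 0.089 (SE, edgeR adjusted p = 8.89e-10).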
